A study of Mus musculus with 11 samples.

Results

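The regions described here were distal binding regions of PU.1 that the authors listed for B cells after 1 day of stimulation and for which their day 3 list held no partner. A region of the day 1 PU.1 list was taken when no peak position of the day 3 PU.1 list lay less than 200 bp away and when it lay more than 1 kb from every annotated protein-coding transcription start site of mm9. This rule left 7139 distinct regions of 21966 in the day 1 list. The members were therefore selected on PU.1 peak calls of both days, and their PU.1 values are given as a description without a test. Taken against every peak of day 3 replicate 2 alone, the rule would leave 2392, and with every peak of day 1 replicate 2 in place of the day 1 list, 18003. The name day 1-only did not hold at the level of single libraries, since 5873 of the 7139 regions (82.3%, exact binomial 95% interval 81.4 to 83.1%) carried a peak in 1 of the 2 day 3 PU.1 libraries. They are called partnerless distal regions below, and the 11680 distal regions of the day 1 list with a day 3 list partner are called partnered regions.

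The study used chromatin immunoprecipitation with sequencing (ChIP-seq), in which an antibody recovers the DNA bound by a protein and places of piled-up reads are called as peaks. The samples were resting mature splenic B cells of B1-8i mice on the 129 background, whose targeted immunoglobulin gene gives an antibody to the hapten NP. All ChIP cells were cultured with CD40L, IL-2, IL-4, IL-5 and 0.01 ng of NP-Ficoll per mL, at a density of 0.5 M cells per mL. Cells taken on day 3 gave 2 PU.1 and 3 IRF4 libraries, and cells taken on day 1 gave 2 PU.1 and 3 IRF4 libraries. The background used by the authors was 1 input library, which combines 2 preparations of peripheral or immature B cells and was not made from the stimulated cells. The labels name no sort of the day 3 cells by fate. The first day 3 PU.1 library carries a pair of numbers in its title, where the other carries 1. Nothing in the labels ties the replicates to separate mice or cultures.

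PU.1 is an Ets family transcription factor that opens enhancers in myeloid cells and B cells and binds purine-rich sites around a GGAA core. IRF4 binds weakly to DNA alone and joins PU.1 on the Ets-IRF composite element (EICE), or AP-1 proteins on their own composite sites, and high IRF4 drives plasma cell differentiation. Distal regions bound by PU.1 in B cells are commonly enhancers of B cell genes.

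The sequences below show 7 of the strongest regions that had no peak position within 200 bp in either day 3 library and the 3 strongest partnerless regions of all (these 3 were added after values were seen). They are 121 bases of the mm9 reference around the peak position, plus strand, with matches to the Ets core GAGGAA and to the EICE GGAANNGAAA in capitals on either strand.
Region in an intron of Hivep3, nearest start Edn2, chr4:119726325-119726445: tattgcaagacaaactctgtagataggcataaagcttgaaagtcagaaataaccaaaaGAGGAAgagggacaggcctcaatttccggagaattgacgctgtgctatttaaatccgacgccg
Region downstream of the BC024139 start, chr15:75949873-75949993: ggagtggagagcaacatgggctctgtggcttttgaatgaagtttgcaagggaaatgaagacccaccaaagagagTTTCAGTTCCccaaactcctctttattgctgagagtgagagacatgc
Region upstream of Nsmce1, chr7:132639485-132639605: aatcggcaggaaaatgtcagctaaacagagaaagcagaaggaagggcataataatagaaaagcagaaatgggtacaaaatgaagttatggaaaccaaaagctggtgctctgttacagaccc
Region upstream of Bzrap1, chr11:87563558-87563678: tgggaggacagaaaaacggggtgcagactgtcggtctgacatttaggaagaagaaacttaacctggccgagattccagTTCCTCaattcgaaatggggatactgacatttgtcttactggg
Region upstream of St3gal1, chr15:66976990-66977110: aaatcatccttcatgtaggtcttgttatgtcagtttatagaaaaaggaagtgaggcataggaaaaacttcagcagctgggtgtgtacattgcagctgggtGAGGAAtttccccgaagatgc
Region downstream of the Tomm20 start, chr8:129352190-129352310: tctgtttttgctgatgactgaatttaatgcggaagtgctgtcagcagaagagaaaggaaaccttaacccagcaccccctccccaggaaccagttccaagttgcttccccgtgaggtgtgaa
Region in an intron of Mctp2, chr7:79405980-79406100: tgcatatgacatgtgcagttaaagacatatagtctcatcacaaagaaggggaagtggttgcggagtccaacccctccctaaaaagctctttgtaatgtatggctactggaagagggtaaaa
Region 54.1 kb upstream of Slc22a27, chr19:8094562-8094682: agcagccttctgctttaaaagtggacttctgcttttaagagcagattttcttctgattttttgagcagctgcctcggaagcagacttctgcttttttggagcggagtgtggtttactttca
Region 35.2 kb upstream of Atp1b3, chr9:96299911-96300031: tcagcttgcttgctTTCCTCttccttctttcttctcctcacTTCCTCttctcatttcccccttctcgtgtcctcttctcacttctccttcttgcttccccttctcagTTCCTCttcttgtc
Region 81.8 kb from the Sfi1 start, chr11:3005456-3005576: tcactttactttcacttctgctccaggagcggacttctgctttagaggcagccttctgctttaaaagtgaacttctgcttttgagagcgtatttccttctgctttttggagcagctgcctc
The Hivep3, Bzrap1 and St3gal1 windows each held 1 GAGGAA match, and the BC024139 window held 1 EICE match. The Atp1b3 window is a pyrimidine-rich tract with 3 GAGGAA matches on the minus strand, and the Nsmce1, Tomm20, Mctp2, Slc22a27 and Sfi1 windows held neither motif. The Slc22a27 and Sfi1 windows share stretches of sequence, among them gcagccttctgctttaaaagtg, and are not independent examples. The strongest region without a nearby day 3 position lies in an intron of Tcf4 and is named without its sequence.

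In the day 3 libraries, most partnerless regions were present in replicate 2 and absent from replicate 1. Replicate 2 alone had a peak at 4744 of the 7139 regions (66.5%, 95% interval 65.3 to 67.5%), replicate 1 alone at 1129 (15.8%, 14.98 to 16.7%), neither at 1258 (17.6%, 16.7 to 18.5%) and both at 8 (0.112%). All 21382 lines of the day 3 PU.1 list were copies of replicate 1 lines with a replicate 2 position at most 200 bp away, so a peak of replicate 2 alone has no line in that list. The intervals here and below cover counting error only, since regions of one list are not replicates. The mirror set, 5508 distal regions of the day 3 list without a day 1 list partner, had a peak in a single day 1 library at 3812 regions (69.2%) and in neither at 1691 (30.7%).

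**Figure D1:**
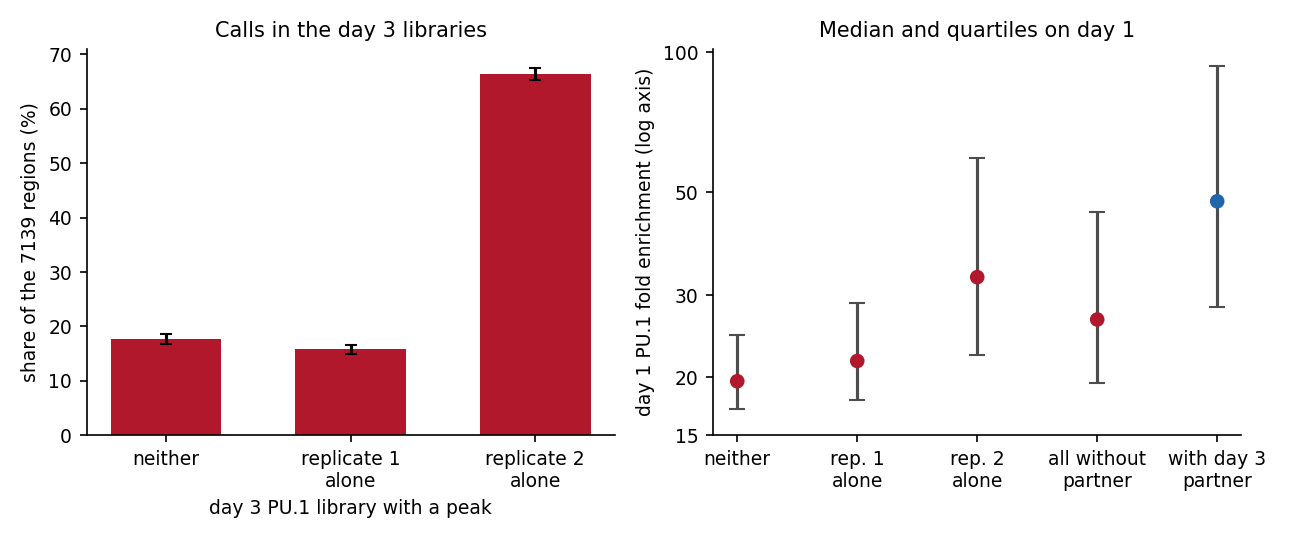
Left, share of the 7139 partnerless distal regions (percent, bars, with exact binomial 95% intervals) by the day 3 PU.1 library that had a peak within 200 bp; right, median (point) and quartiles (bars) of the day 1 PU.1 fold enrichment on a log axis. Replicate 2 alone held 66.5% of the regions, and the regions of neither library had the lowest median enrichment, 19.6.

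Among all distal day 1 regions, 37.9% had no day 3 list partner, against 35.7% of the whole day 1 list. The partnerless regions were weaker than the partnered ones on day 1. Their fold enrichment over input, the authors' value from day 1 replicate 1, had a median of 26.6 (quartiles 19.5 and 45.3, highest 1591), and partnered regions had a median of 47.8 (28.4 and 93.3, highest 1865). Their median width was 290 bp, against 337 bp at partnered regions. The 1258 regions of neither day 3 library had a median enrichment of 19.6, close to the lowest value of the list, 15.003. Regions of replicate 1 alone had a median of 21.7 and regions of replicate 2 alone a median of 32.8. Within the day 3 replicate 2 library the partnerless regions it called ranked at a median percentile of 60.3 by enrichment, and partnered regions at 73.0. Within day 3 replicate 1 these medians were 43.8 and 76.0.

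Absence from day 3 replicate 1 reached far up the enrichment scale, as the plot of day 3 calls by deciles of enrichment shows. In the lowest decile of distal day 1 regions, 49.3% had a peak in day 3 replicate 1 and 60.1% in day 3 replicate 2. In the highest decile, 83.1% had a peak in replicate 1 and 99.6% in replicate 2. The share of partnerless regions was 66.7% in the lowest decile and 17.0% in the highest, where they still numbered 317 of 1862. Between whole libraries, day 1 replicate 1 had 23460 distal peaks, of which 63.2% were found in day 3 replicate 1, 80.4% in day 3 replicate 2 and 80.2% in day 1 replicate 2. Of the distal peaks of day 3 replicate 2 in the stronger 50%, 73.6% were found in day 3 replicate 1, 89.8% in day 1 replicate 1 and 91.5% in day 1 replicate 2. In the other direction, of the stronger 50% of distal peaks of day 3 replicate 1, 90.6% were found in day 3 replicate 2, 84.0% in day 1 replicate 1 and 87.0% in day 1 replicate 2.

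**Figure D2:**
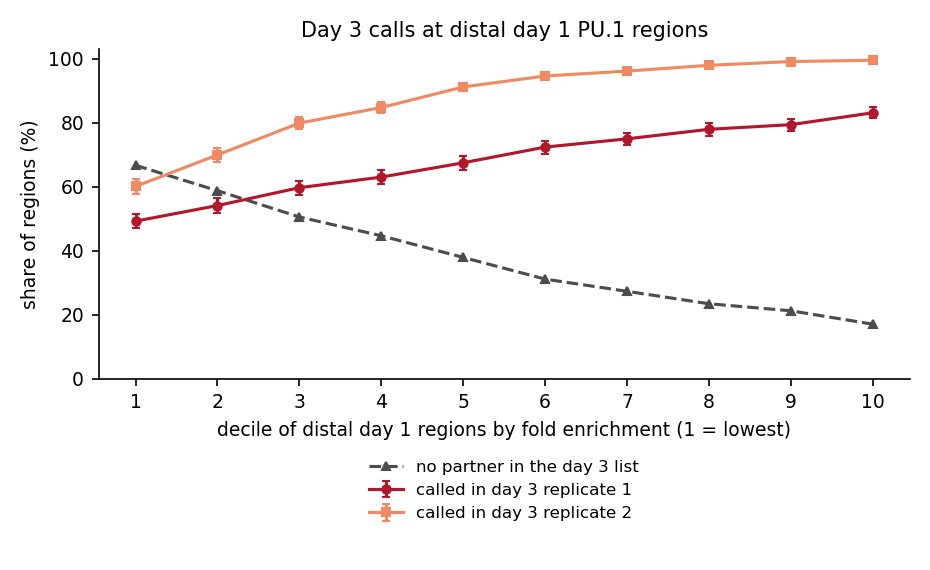
Share of distal day 1 PU.1 regions (percent, with exact binomial 95% intervals for calls) that had a peak in each day 3 library or no partner in the day 3 list, by deciles of day 1 fold enrichment from lowest to highest. In the highest decile 83.1% were called in replicate 1, 99.6% in replicate 2, and 17.0% had no list partner.

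Few members lay close to the edges of the rule. The nearest day 3 list position was 200 to under 250 bp away for 19 partnerless regions, while 33 distal regions at 150 to under 200 bp counted as partnered. It was under 1 kb away for 460 partnerless regions, and 39 lay inside an interval of the day 3 list. On the side of the start sites, 375 members lay 1 to 2 kb from a start, and 242 other regions without a partner lay 0.5 to 1 kb from one.

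Repeated sequence was more frequent in the partnerless regions. A window of 201 bp held at least 1 word of 30 bases that occurs more than once in mm9 at 1642 partnerless regions (23.0%) and at 647 partnered regions (5.54%), a difference of 17.5 percentage points (95% interval 16.4 to 18.5). With every peak of day 3 replicate 2 in place of the day 3 list, the difference was 3.36 points (1.89 to 4.92). The share was 26.98% where day 3 replicate 2 alone had a peak, 22.7% where neither did and 6.64% where replicate 1 alone did. The mirror set of day 3 distal regions had 6.23%. Distal day 1 regions with a repeated word had a peak in day 3 replicate 1 at 31.6% and in day 3 replicate 2 at 84.2%. Regions whose words all occur once had a peak in replicate 1 at 73.2% and in replicate 2 at 87.7%. In the stronger 50% the replicate 1 shares were 41.7% with a repeated word and 81.6% without, and the replicate 2 shares were 96.3% and 97.5%. The sources used here do not give how reads that map to several places were handled in each library, and its part in the missing calls was not tested.

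**Figure D3:**
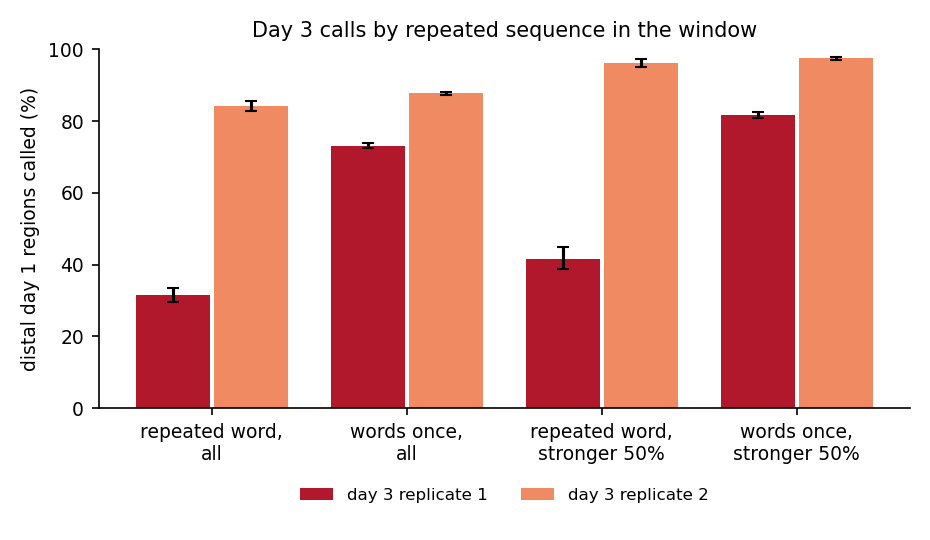
Share of distal day 1 PU.1 regions (percent, bars, with exact binomial 95% intervals) called in day 3 replicate 1 and in day 3 replicate 2, by whether the 201 bp window holds a 30-base word found more than once in mm9. In replicate 1, 31.6% of regions with a repeated word and 73.2% of the others were called; in replicate 2, 84.2% and 87.7%.

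Some partnerless regions shared sequence with each other. The most frequent words of 16 bases, chosen after their counts were seen, are given with all matched bases in capitals.
Word in 52 partnerless and 2 partnered regions: AGTGACACACTTCCTC
Word in 33 partnerless and 1 partnered region: AAGCAAAAGGGGAAGT
Word in 33 partnerless and 0 partnered regions: ACTTCCTCCAACAAGG
Word in 30 partnerless and 1 partnered region: AAGGCCACACCTCCTA
The first word ends with ACTTCCTC and the third begins with it, which is the reverse complement of the PU.1 site GAGGAAGT, so these words overlap in that stretch and need not be separate elements. The third word ends with AAGG and the fourth begins with it, so these too may be parts of a single stretch. Whether they lie side by side was not tested. Of the 52 regions with the first word, 38 had a peak in day 3 replicate 2 alone, 14 in neither day 3 library and 0 in replicate 1 alone. Regions that share such a word share part of their sequence and are not independent examples.

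The share of regions with a PU.1 site was close in partnerless and partnered regions. Whether the difference exceeded counting error, and its sign, depended on the window and on the regions and libraries taken. The PU.1 site GAGGAAGT, searched on both strands within 100 bp of the peak position as were all motifs below, was present at 27.7% of partnerless regions, 28.3% of partnered regions and 1.37% of windows 2 kb to either side of the members. The difference was -0.54 points with a 95% interval from -1.86 to 0.78. With every peak of day 3 replicate 2 in place of the day 3 list, it was -2.85 points (-4.69 to -0.94). Within 50 bp of the peak position it was -1.83 points (-3.09 to -0.56). The shorter core GAGGAA, which also lies within that site, was present at 58.2% and 58.8%, and at 18.5% of the windows 2 kb away, and within 50 bp its difference was -2.03 points (-3.50 to -0.56). Where present, the PU.1 site lay at a median of 21.5 bp from the peak position in partnerless regions and 18.5 bp in partnered regions. Within 25 bp lay 56.4% of the sites of partnerless regions and 64.9% of those of partnered regions. The site was more frequent in partnerless regions than in the mirror set of day 3 distal regions, where it was present at 21.97% (difference 5.77 points, 4.25 to 7.27). By class it was present at 26.9% of regions of neither day 3 library, 24.2% of those of replicate 1 alone and 28.8% of those of replicate 2 alone.

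The composite and partner motifs were less frequent, with small differences. The EICE GGAANNGAAA was present at 13.4% of partnerless regions, 16.5% of partnered regions and 2.16% of the windows 2 kb away, and the difference was -3.04 points (95% interval -4.07 to -1.996). It was -7.75 points without day 3 replicate 1 and -1.11 points without day 3 replicate 2. Among regions nearer in enrichment it was -0.58 points (-1.82 to 0.66) in the lower 50% of the day 1 list and 0.47 points (-1.38 to 2.38) in the upper 50%. The EICE share also varied among the members, from 15.9% in the class of day 3 replicate 2 alone to 9.46% in the class of neither library and 7.53% in that of replicate 1 alone. A control with the EICE letters reversed in order, AAAGNNAAGG, was at 2.35% and 2.19%.

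Among other motifs, the E-box CAGCTG, a site of E proteins, was present at 11.3% of partnerless and 14.0% of partnered regions (difference -2.72 points, -3.68 to -1.74). With every peak of day 3 replicate 2 in place of the day 3 list, the E-box difference was -0.76 points (-2.12 to 0.71). The STAT6 site TTCNNNNGAA, bound downstream of IL-4, was at 5.81% and 7.21% (difference -1.40 points, -2.11 to -0.67), but at regions of neither day 3 library the difference was 0.42 points (-1.004 to 2.09). The octamer ATGCAAAT, bound by Oct factors, was at 1.64% and 2.22%, and the IRF element GAAANNGAAA (ISRE) at 5.35% and 6.18%. The C/EBP site TTGCNNAA was at 9.90% of partnerless and 8.998% of partnered regions, and windows 2 kb away held it at 8.07%. The intervals of the difference included 0 for the AP-1 site TGACTCA (6.29% and 6.52%), the Runx site TGTGGTT (7.54% and 7.59%), the NF-kB site GGGANTTTCC (0.518% and 0.462%) and the EBF site TCCCNNGGGA (0.728% and 0.848%). Without day 3 replicate 1 the AP-1 difference was 1.49 points (0.41 to 2.68) and the NF-kB difference 0.50 points (0.17 to 0.98), both above 0. A motif match describes the sequence and does not show that a factor was bound. Base composition was close, with a median GC content of 46.8% in partnerless and 47.3% in partnered windows, and means of 2.24 and 2.73 CpG per window.

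**Figure D4:**
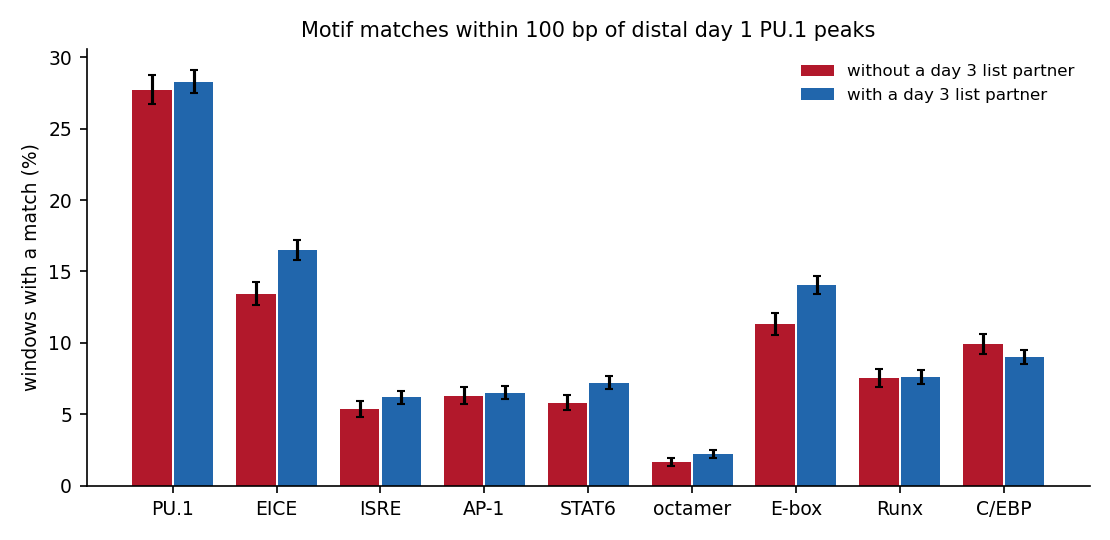
Share of windows within 100 bp of the peak position (percent, bars, with exact binomial 95% intervals) that match each motif, at partnerless distal regions (left bar) and at partnered distal regions (right bar). The PU.1 site was at 27.7% and 28.3% and the EICE at 13.4% and 16.5%.

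IRF4 peaks were rarer at partnerless regions than at partnered ones on both days. The IRF4 day 3 list had a peak at 217 partnerless regions (3.04%) and at 8.95% of partnered regions, a difference of -5.91 points (95% interval -6.56 to -5.25). The IRF4 day 1 list had a peak at 266 partnerless regions (3.73%) and at 8.87% of partnered regions, a difference of -5.14 points (-5.82 to -4.46). Over the whole PU.1 day 1 list the shares were 6.25% for the IRF4 day 3 list and 6.45% for the day 1 list. With an IRF4 day 1 library left out, a peak in both remaining libraries was required in place of the list. The day 1 difference was then -4.53 points without replicate 1, -2.17 without replicate 2 and -2.09 without replicate 3. The last 2 values are bounded by replicate 1, which had only 825 peaks. By the list, the day 1 difference was larger in the upper 50% of the day 1 list by enrichment than in the lower 50%. It was -4.87 points (-6.19 to -3.45) in the upper 50%, with 2334 partnerless and 7260 partnered regions. In the lower 50%, with 4805 and 4420, it was -0.19 points (-0.71 to 0.31). Partnerless regions thus lay more often in the lower 50%. The part of this unlike mix in the -5.14 points was not tested. Where neither day 3 library had a PU.1 peak, the IRF4 lists held a peak at 6 of 1258 regions on day 3 and at 13 on day 1. Both IRF4 lists held a peak at 127 partnerless regions, the day 3 list alone at 90 and the day 1 list alone at 139.

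Library by library, IRF4 peaks on day 3 lay at 3.98%, 2.28% and 6.77% of partnerless regions, against 11.002%, 6.68% and 14.5% of partnered regions. On day 1 they lay at 1.61%, 7.30% and 6.26% of partnerless regions, against 4.16%, 14.3% and 13.2% of partnered regions. The share was lower at partnerless regions in each of the 6 libraries. The log2 ratio of the partnerless to the partnered share averaged -1.37 ± 0.24 on day 3 and -1.14 ± 0.21 on day 1 (SD, n = 3 libraries each). The day 3 minus day 1 difference was -0.23, with p = 0.2 in a two-sided exact permutation test, whose smallest possible p with 3 against 3 libraries is 0.1. The values of the days overlapped, and the size of the libraries did not match, from 1408 to 5595 IRF4 peaks on day 3 and from 825 to 9326 on day 1. Lowest enrichments also differed, at 15.04 to 16.9 on day 3 and 20.9 to 21.9 on day 1, so the lists end at different levels.

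**Figure D5:**
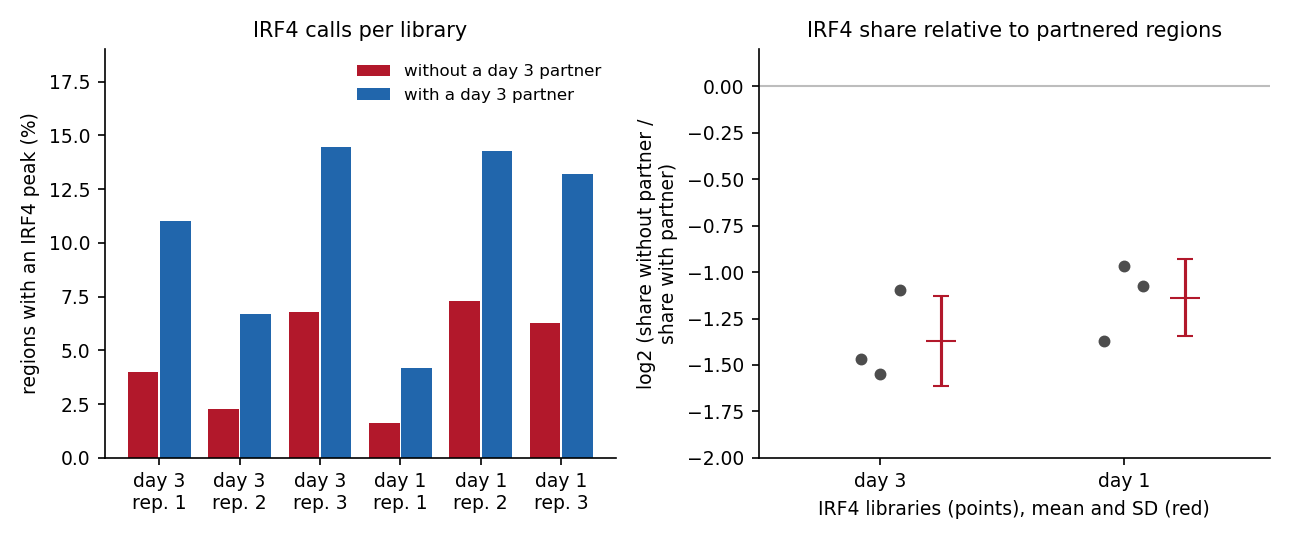
Left, share of partnerless and partnered distal PU.1 regions (percent) with a peak in each of the 6 IRF4 libraries; right, log2 ratio of the partnerless to the partnered share per library (points) with mean and SD (red) for day 3 and day 1. All 6 ratios were below 0, with means of -1.37 on day 3 and -1.14 on day 1.

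The partnerless regions that did carry IRF4 had another motif content than those that did not. The EICE was present at 38.7% of the 217 with a day 3 IRF4 list peak and at 12.7% of the rest, a difference of 26.1 points (19.8 to 32.7). It was present at 33.8% of the 266 with a day 1 IRF4 list peak and at 12.7% of the rest (difference 21.2 points, 15.7 to 27.1). The PU.1 site GAGGAAGT went the other way, at 16.1% with and 28.1% without day 3 IRF4 and at 15.4% with and 28.2% without day 1 IRF4. The AP-1 site was present at 12.0% with and 6.11% without day 3 IRF4, and at 16.2% with and 5.91% without day 1 IRF4.

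The 5 strongest partnerless regions had high PU.1 enrichments in both day 1 libraries and in 1 of the 2 day 3 libraries. The region nearest Slc22a27, a gene for an organic anion transporter, had a PU.1 fold enrichment of 1830 in day 3 replicate 2 and no peak in day 3 replicate 1, against 1591 and 1729 in the day 1 libraries. Its nearest position in day 3 replicate 1 was 310726 bp away, and all 6 IRF4 libraries had a peak there, with day 3 enrichments of 72.5, 47.9 and 47.5, against day 1 enrichments of 47.2, 84.8 and 82.9. The region upstream of Atp1b3, which encodes a subunit of the sodium pump, had 1169 in day 3 replicate 2, against 967.8 and 732.9 on day 1. A peak of day 3 replicate 1 lay 253 bp away from it, just outside the partner distance. The region nearest Sfi1, a centrosome gene, had 1579 in day 3 replicate 2, against 939.1 and 1355 on day 1. The region nearest Slc22a8, another organic anion transporter gene, had 910.8 in day 3 replicate 2, against 897.6 and 1269 on day 1. The region nearest Cdyl, which encodes a chromodomain protein, had 1159.5 in day 3 replicate 2, against 889.6 and 619.1 on day 1. All 5 were high in 3 libraries and listed without a peak in day 3 replicate 1. The Slc22a27 and Sfi1 regions share sequence, as printed above, and are not independent examples. Among the 6 strongest regions with a peak in all 3 day 1 IRF4 libraries, 5 had IRF4 peaks in 2 or 3 day 3 libraries, and the one upstream of Pcif1 had IRF4 enrichments of 53.5, 93.8 and 62.9 on day 1 and no IRF4 peak in a day 3 library. Its PU.1 enrichment was 734.8 in day 3 replicate 2, against 706.3 and 549.7 on day 1. The share of words in the window that occur once was 95.3% for Slc22a27, 66.3% for Sfi1 and 81.4% for Slc22a8. It was 100% for Atp1b3 and for Cdyl, and 98.8% for Pcif1. The part of repeated sequence in the enrichments and missing calls of these regions was not tested.

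The strongest regions without a position within 200 bp in either day 3 library were in part neighbours of day 3 peaks. The region in an intron of Tcf4, an E protein gene, at position 69822913 of chromosome 18, had a fold enrichment of 363.5 and 625.1 in the day 1 PU.1 libraries. The nearest day 3 positions lay 921 and 950 bp away. The region in Hivep3 had 280.6 and 521.6 on day 1, with day 3 positions 501 and 559 bp away, and IRF4 peaks in 2 libraries of each day. The region near Plau, the gene of urokinase, had 85.9 and 135.7 on day 1, with day 3 positions 234 and 225 bp away. Of the 12 strongest of this class, the regions near Mctp2 and P4ha2 had no day 3 position within 1 kb in either library, and their day 1 enrichments were 91.5 and 113.2 for Mctp2 and 82.1 and 100.5 for P4ha2. The same held for the intronic region of March1, a ubiquitin ligase acting on MHC class II, with 83.1 and 21.1. Over all 1258 regions of the class, 208 had a day 3 library position from 200 bp to under 1 kb away and 56 lay inside an interval of a day 3 library.

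In the genome, partnerless regions lay more often between genes. By GENCODE gene models of mm9, 51.5% were outside protein-coding genes, 46.3% in introns and 2.13% in exons, against 44.1%, 51.2% and 4.64% of partnered regions. The intergenic difference was 7.43 points (95% interval 5.96 to 8.90), and 12.2 points for regions of neither day 3 library. By class, the intergenic share was 56.3% for neither library, 51.7% for replicate 2 alone and 45.7% (42.8 to 48.7%) for replicate 1 alone. The last was close to that of partnered regions. The median distance to the nearest protein-coding start was 20.8 kb for partnerless and 19.2 kb for partnered regions. Another day 1 PU.1 peak lay within 5 kb of 30.4% of partnerless and 35.0% of partnered regions. The share of distal day 1 regions that were partnerless varied over 20 chromosomes from 34.6% on chromosome 11 to 43.3% on chromosome X.

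Near genes, partnerless regions were frequent at B cell loci, where partnered regions were frequent as well. Of 22380 protein-coding genes, 5287 (23.6%) had a partnerless region in the gene or within 20 kb, and 7411 (33.1%) had a partnered one. Of 20 genes of the B cell receptor and B cell identity, 17 had one and 18 had a partnered region. These genes are long, with a median of 58.1 kb, against 15.4 kb over all genes, so the shares are not adjusted for length. Pax5, which holds B cells in their lineage, had 7 partnerless and 5 partnered regions, Cd22, an inhibitory receptor, had 3 and 1, and Ebf1, an early B cell factor, had 4 and 14. Cd79a and Cd79b, the signalling chains of the receptor, had 0 partnerless regions and 1 and 6 partnered ones.

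Antigen presentation and costimulation genes had a partnerless region at 13 of 16 and a partnered one at 14. In this and the other lists, a region within 20 kb of several genes counts for each. The H2 genes all lie on chromosome 17, and the region upstream of H2-Eb1 named below counted for H2-Aa as well. Genes of this list are therefore not all separate loci. The region 4.03 kb upstream of Ciita, the master activator of MHC class II genes, had a fold enrichment of 396.7 in day 3 replicate 2 and no peak in replicate 1, against 312.5 and 387.1 on day 1. The region upstream of H2-Eb1, an MHC class II gene, had no peak in either day 3 library, against 52.1 and 54.2 on day 1, but day 3 positions lay 541 and 563 bp away. Cd86, a costimulatory ligand, had 5 partnerless and 4 partnered regions. Germinal centre genes had a partnerless region at 14 of 20 and a partnered one at 16. Bach2, a repressor of plasma cell differentiation, had 8 partnerless and 18 partnered regions, and Bcl6, the germinal centre repressor, had 3 and 4. The Bach2 region of neither day 3 library had 22.3 and 16.3 on day 1, near the end of the list, and matched both the PU.1 site and the EICE.

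Plasma cell and secretion genes had a partnerless region at 9 of 20 and a partnered one at 14, and 0 of 20 had a region of neither day 3 library, which 4.94% of all protein-coding genes had. Prdm1, the gene of Blimp-1, and Irf4 itself had 0 partnerless regions and 5 and 4 partnered ones. The region 11.4 kb upstream of Xbp1, a factor of the secretory programme, had 142.5 in day 3 replicate 2 and no peak in replicate 1, against 118.8 and 142.7 on day 1. NF-kB and activation genes, cytokine receptor and STAT genes, and migration and adhesion genes each had a partnerless region at 9 of 20, and a partnered one at 17, 18 and 14. The region in Itgb7, an integrin of gut homing, had 536.4 in day 3 replicate 2 and no peak in replicate 1, against 361.9 and 397.5 on day 1. Ets, IRF and partner factor genes had a partnerless region at 15 of 19 and a partnered one at 17. There were 5 partnerless and 6 partnered regions at Fli1 and 4 and 10 at Ets1, both Ets factor genes. Interferon-stimulated genes had a partnerless region at 7 of 20, among them Oasl2, and a partnered one at 10. In this list 0 of 20 had a region of neither day 3 library. Lists of 20 genes, this one and the plasma cell one, are too short to tell 0 from the 4.94% of all genes. The strongest region within 20 kb of Oasl2 lay 1.16 kb upstream of the nearer gene Oasl1. It had 568.6 in day 3 replicate 2 and no peak in replicate 1, against 414.5 and 679.7 on day 1.

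Genes of other cell types gave a mixed picture. Myeloid markers had a partnerless region at 9 of 20 and a partnered one at 8, and 5 of the 9 had no partnered region, as did 2202 of the 5287 genes with a partnerless region overall. Itgam, the CD11b integrin chain, had 5 partnerless and 1 partnered region, while Csf1r, a growth factor receptor, and Adgre1, the F4/80 antigen, each had 0 and 3. The region in an intron of Cx3cr1, a chemokine receptor gene of monocytes, had no peak in either day 3 library, against 25.7 and 77.0 on day 1. T and NK cell markers had a partnerless region at 3 of 20 and a partnered one at 11, erythroid and megakaryocyte markers at 3 of 15 and 3, and neuron and liver genes at 3 of 19 and 7. PU.1 peaks do not measure the cells present, and the share of other cells in the cultures was not tested. Counted by members alone, Gm20388, a gene model of 4435 kb, had 15 partnerless and 43 partnered regions. Fgfr2, a model of 3009 kb, had 12 and 21, and Arfip1, a model of 1391 kb, had 12 and 8. These counts are not adjusted for length. Sgms1, for sphingomyelin synthesis, had 9 and 9. A930011G23Rik, Arhgap26, Bach2, Cmah and Vav2 had 8 partnerless regions each. Partnered regions numbered 7 at A930011G23Rik, 11 at Arhgap26 and 18 at Bach2. Cmah, which makes the sialic acid Neu5Gc, had 2 partnered regions and Vav2, a guanine nucleotide exchange factor below the B cell receptor, had 5.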

How the data were processed

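Each deposited peak list gives intervals with a peak position and an enrichment value, which is the authors' fold enrichment over input, a linear ratio. Per the series' design text, reads were mapped to mm9 and enrichment was computed with QuEST. The sources used here give no version, threshold or aligner. The lists hold no read counts, so depth is unknown. Peaks were called per library, and the lines of both PU.1 group lists were found to be copies of replicate 1 lines. Repeated lines, 7 on day 1 and 5 on day 3, were counted once.

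Positions less than 200 bp apart counted as shared. Start sites and gene models came from GENCODE M1 on mm9. Motifs and 30-base words were counted in the mm9 sequence with Python 3.11.15, numpy 2.4.6, pandas 2.3.3, scipy 1.17.1 and pysam 0.24.0. Peak positions were read as counted from 1, which the files do not state. Shares have exact binomial 95% intervals, differences of shares Newcombe 95% intervals. Shared 16-base words were the 4 most frequent with varied bases, leaving out a word that shared 10 or more bases in a row with one already taken. Matching and intervals were tested on simulated data. Replicate numbers come from the sample descriptions, and p-values measure only the spread between libraries, which may be technical.

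The members and the gene and motif lists were chosen with earlier results of these data known. Of 251 listed genes, 249 matched the annotation, 4 through another symbol. Named regions were the 12 strongest of neither day 3 library, up to 3 per gene list, the 6 with the most day 1 IRF4 libraries, the 5 strongest and the 8 genes with most members. Ties at the last place were kept. A few genes in the text, such as Prdm1 and Pax5, were picked from the lists after their counts were seen. A few items are not reported here.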

Additional observations from a re-analysis of the deposited data

How the results depend on the processing

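The number of partnerless regions stayed within 1.5 times 7139 for partner distances of 100 and 500 bp, start-site distances of 500 bp and 5 kb, and equal numbers of top peaks. It was 3328 in the stronger 50% of each PU.1 list. Taking all peaks of the other library in place of a list, it ranged from 2392 (without day 3 replicate 1) to 18003 (without day 1 replicate 1). The share called in a day 3 library, 82.4%, was 81.1% at a partner distance of 100 bp, 83.6% at 500 bp and 97.2% in the stronger 50% of each list. The 97.2% is raised by the setting itself, which cut the lists but not the day 3 libraries. A region whose day 3 list partner lay in the weaker 50% became a member that a day 3 library calls. The value therefore does not describe strong partnerless regions. The cause of the other shifts was not tested.

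The day 1 IRF4 difference of -5.14 points was -7.84 at regions of neither day 3 library, -4.13 at those of day 3 replicate 2 alone and -0.19 in the lower 50% of the day 1 list. Here and above, regions of neither library or of replicate 2 alone were set against all 11680 partnered regions. Median day 1 enrichments were 19.6, 32.8 and 47.8, in that order. Such comparisons are therefore not between regions of like enrichment. The lower and upper 50% cut both groups. With single libraries left out the IRF4 difference ranged from -5.96 to -2.09, where leaving out an IRF4 library meant requiring a peak in both remaining ones. The PU.1 site difference of -0.54 points was 1.87 in the lower 50% and -2.0002 in windows of unique words, and ranged from -2.85 to 0.52 with a library left out. The EICE difference of -3.04 points was -7.03 at regions of neither library, -0.55 at those of replicate 2 alone, -0.58 in the lower 50% and 0.47, the other sign, in the upper 50%; it ranged from -7.75 to -1.11 with a library left out. The STAT6 site difference changed sign at regions of neither library (0.42) and without day 3 replicate 1 (0.59), and ranged from -1.51 to 0.59 with a library left out. The repeated-word difference of 17.5 points was 18.6 in the wider window, 15.96 in the lower and 20.7 in the upper 50%, and from 3.36 (without day 3 replicate 1) to 20.4 (without replicate 2). The intergenic difference of 7.43 points was 12.2 at regions of neither library. Genes with a partnerless region numbered 3230 within 5 kb, 8329 within 50 kb and 1105 for regions of neither library, against 5287. The cause of each shift was not tested, and settings by unique words, by replicate 2 alone and all those of repeated words were chosen after seeing the data.

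For the IRF4 ratio of day 3 to day 1, taking the shared replicate numbers as a replicate block gave -0.23 with p = 0.25 by an exact sign-flip test, the smallest p that 3 pairs allow. The numbers are not stated to pair samples. The difference was negative in all 17 alternatives run, this one included, from -1.60 to -0.14, and none could be called at 0.05, because 3 against 3 libraries do not go below 0.1. Depth is unknown, so a missing peak shows only that none was listed.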
